A study of Mus musculus with 3 samples.

Results

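Acta2, which encodes the smooth muscle form of alpha-actin, was described together with 9 further genes of the actin contractile apparatus in mouse colon organoids treated with IFN-γ. The 10 genes were taken by symbol from the 32285 features of the matrices, and were selected on earlier results of these libraries, namely the pooled Acta2 level in each library, so the levels and ratios of the set are given as a description with no test. The set comprised the smooth muscle actins Acta2 and Actg2, the cytoskeletal actins Actb and Actg1, the actin-binding proteins Tagln, Tagln2 and Actn1, the tropomyosins Tpm1 and Tpm2, and the myosin light chain Myl9. It was measured whether the higher Acta2 level came with higher levels of its contractile partners, in which epithelial clusters it was found, and how it compared with barcodes holding few molecules.

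The organoids were grown from colon epithelium of C57BL/6 wild-type mice and kept in full medium, and the 3 libraries came from untreated organoids, organoids given IFN-γ for 24 h and organoids given IFN-γ for 48 h. The medium held a TGF-β receptor inhibitor, and a ROCK inhibitor was added after passaging, so all 3 groups carry these agents. Live cells were sorted as DAPI-negative, and the sources used here do not tie the libraries to separate mice or passages. Each group has 1 library, so no difference between groups has a replicate check and no test was made. All intervals below are 95% intervals and cover counting error only.

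A barcode was taken as a cell when it held 5000 or more UMIs (unique molecular identifiers, each tagging 1 captured RNA molecule) from 400 or more genes, with no more than 15% of them mitochondrial. They numbered 1058, 917 and 2934 in the untreated, 24 h and 48 h libraries, with 47243500 to 71077817 UMIs per library. The median depth differed, at 33550, 68784 and 10772 UMIs per cell. Pairs of libraries shared 1 to 4 cell barcodes. The epithelial label was checked against 7 epithelial markers, whose summed level was 8616, 6588 and 5999 CPM (counts per 1000000 UMIs) in the 3 libraries, while the immune list summed to 0.211 to 0.321 CPM, with Ptprc at 0 in all libraries.

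In smooth muscle and myofibroblasts, alpha-actin filaments slide against myosin, and calponin, transgelin, tropomyosin and myosin light chains assemble on or act with the same filaments. Transcription of these genes is commonly driven as a block by serum response factor (SRF) with its cofactors of the myocardin family, and TGF-β signalling feeds into this program. Epithelial cells of the colon build their cortex and brush border from the cytoskeletal actins and from non-muscle myosin, and the smooth muscle actins are normally markers of the surrounding muscle and stroma.

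Acta2 was the one gene of the set with a strongly higher level after IFN-γ. It was counted 42 times in the untreated cells, 774 times at 24 h and 806 times at 48 h, which is 0.843 CPM (interval 0.608 to 1.14), 10.9 CPM (10.1 to 11.7) and 17.1 CPM. The level was 12.9-fold higher at 24 h (log2 ratio 3.69, interval 3.24 to 4.17) and 20.2-fold higher at 48 h (log2 ratio 4.34, interval 3.89 to 4.82). The 48 h level lay above the 24 h level by 0.65 on the log2 scale (0.50 to 0.79). The CPM intervals of the 3 libraries did not overlap. With TMM scaling, explained below, the log2 ratios to untreated were 4.15 at 24 h and 4.52 at 48 h. The step between the times was then smaller and outside its counting interval.

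The untreated level rested on very few cells. Of the 42 untreated UMIs, 28 sat in 2 cells with 17 and 11 UMIs, and both cells carried the epithelial transcripts Krt8 and Epcam. The cell with 17 also held 3 of the 7 untreated Myl9 UMIs and 0 of Actg2. The cell with 11 held 2 of the 19 untreated Actg2 UMIs and 0 of Myl9. Tagln was at 0 in both. The other untreated cells held 14 UMIs, or 0.281 CPM, and without the 2 cells the log2 ratio was 5.27 at 24 h and 5.92 at 48 h. In the treated libraries the 2 cells with the most Acta2 held 25 of 774 UMIs and 21 of 806 UMIs.

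**Figure D1:**
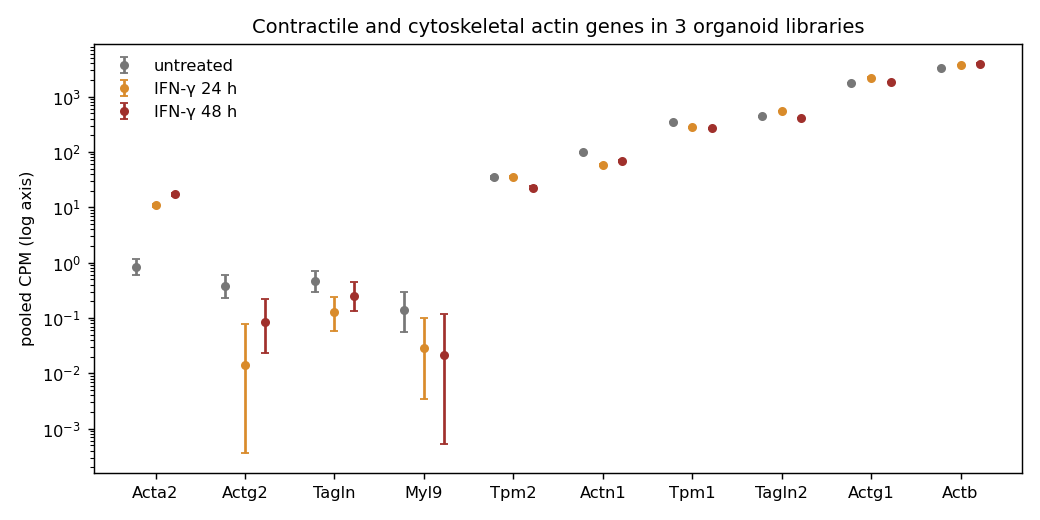
Pooled CPM (log axis) of the 10 genes in the untreated, IFN-γ 24 h and IFN-γ 48 h libraries; points are sums over all filtered cells of 1 library and bars are exact Poisson 95% intervals. Acta2 lay at 0.843, 10.9 and 17.1 CPM, while Actg2, Tagln and Myl9 stayed under 1 CPM in every library.

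Reads of one actin gene could be assigned to another only where their transcripts are alike, so the coding sequences were compared. Acta2 (ENSMUSG00000035783) lies on the minus strand at chr19:34241090-34255590 (GRCm38, GENCODE vM21), and no other annotated gene overlaps it. Its coding sequence matched that of Actg2 at 84.2% of aligned positions, that of Actb at 82.8%, that of Actg1 at 81.5% and that of the skeletal actin Acta1 at 85.4%. No pair of the actin genes shared a run of 50 bases within the last 500 bases of their transcripts, the end that this 3' chemistry reads. Over whole transcripts, Acta2 shared 7 different 50-base runs with Actg1 and 0 with Actg2, Actb and Acta1. After the stop codon the transcripts run on for 577 bases in Acta2, 683 in Actb, 700 in Actg1, 240 in Acta1 and 80 in Actg2. The coding ends of Acta2, Actb and Actg1 therefore lie outside the last 500 bases. The last 75 coding bases, up to and including the stop codon, are shown because they set Acta2 beside its paralogs, and capitals mark the bases that differ from Acta2.
Acta2: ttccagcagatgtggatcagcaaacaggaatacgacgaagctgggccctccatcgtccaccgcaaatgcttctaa
Actg2: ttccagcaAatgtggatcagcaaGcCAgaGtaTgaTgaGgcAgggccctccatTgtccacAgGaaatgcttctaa
Actb: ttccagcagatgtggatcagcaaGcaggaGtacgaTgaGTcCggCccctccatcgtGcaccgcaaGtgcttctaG
Actg1: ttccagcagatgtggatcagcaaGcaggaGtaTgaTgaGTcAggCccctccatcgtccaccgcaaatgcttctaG
Acta1: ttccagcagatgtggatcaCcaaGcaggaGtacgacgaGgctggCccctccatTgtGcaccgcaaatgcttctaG
The 4 paralogs differed from Acta2 at 8 to 12 of these 75 bases.

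The other smooth muscle genes of the set did not share the higher level. Actg2, the gamma-actin of visceral smooth muscle, had 19, 1 and 4 UMIs in the untreated, 24 h and 48 h cells. It was lower at 24 h by a log2 ratio of -4.76 (interval -10.14 to -2.11) and at 48 h by one of -2.17 (-4.19 to -0.58). The 19 untreated UMIs came from 8 cells, 6 of them from 1 cell, and these intervals do not cover such clumping. In barcodes under 2000 UMIs Actg2 had 4, 4 and 2 UMIs, or 0.138, 0.187 and 0.078 CPM, and was not lower at 24 h. Tagln, which encodes transgelin and is an early marker of smooth muscle, had 23, 9 and 12 UMIs, with a log2 ratio of -1.87 at 24 h (-3.16 to -0.70) and -0.86 at 48 h (interval up to 0.20). Tagln overlaps Pcsk7 and the antisense gene Gm48529, both on the opposite strand. Myl9, the regulatory light chain of smooth muscle myosin, had 7, 2 and 1 UMIs. It was below the minimum of 10 counts over 2 libraries that a pooled ratio needed. All 3 genes were at or under 0.462 CPM in every library, so they were lower or too rarely counted to compare.

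By library totals, the abundant genes of the set moved little. Actb stood at 3279, 3765 and 3947 CPM in the untreated, 24 h and 48 h libraries, a log2 ratio of 0.20 and 0.27. Actg1 stood at 1778, 2207 and 1846 CPM, a log2 ratio of 0.31 and 0.05. Tagln2, the transgelin of non-muscle cells, stood at 439, 553 and 412 CPM, with log2 ratios of 0.33 and -0.09, the latter 0.10 with TMM scaling, which sets libraries against each other by a trimmed mean over genes in place of the library total. With TMM scaling the log2 ratios at 24 h were larger, at 0.65 for Actb, 0.77 for Actg1 and 0.79 for Tagln2. At 48 h Actb was at 0.45 and Actg1 at 0.24 with that scaling. These 3 genes were thus higher at 24 h by less than 2-fold, also with TMM and median-of-ratios scaling.

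By library totals, tropomyosins and alpha-actinin stood lower or level. Tpm1 was at 348, 277 and 266 CPM, a log2 ratio of -0.33 at 24 h, which turned to 0.12 with TMM scaling, and of -0.39 at 48 h. Tpm2 was at 34.6, 35.1 and 22.6 CPM, a log2 ratio of 0.02 and -0.61. Actn1, which cross-links actin filaments at focal adhesions and cell junctions, was at 98.9, 57.5 and 69.0 CPM, which gives log2 ratios of -0.78 and -0.52. The interval of the Actn1 ratio at 24 h, which covers counting error only, was -0.84 to -0.72. With TMM scaling the Actn1 ratios lay outside their counting intervals, at -0.33 at 24 h and -0.33 at 48 h. Those of Tpm2 were 0.48 and -0.43 with TMM scaling.

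A ratio at or past 2-fold, a log2 ratio of 1 in either direction, was used as the call. Among the 9 genes of the set with enough counts, 1 was 2-fold higher and 2 were 2-fold lower at 24 h, when 3.46% of all 17412 genes compared were 2-fold higher and 26.0% were 2-fold lower. At 48 h 1 was higher and 1 lower, when 5.26% of 17376 genes were 2-fold higher and 16.6% lower. The median log2 ratio of the 9 genes was 0.02 at 24 h and -0.39 at 48 h, and that of all genes compared was -0.46 and -0.18. TMM scaling moved the median of all genes to 0.00 and 0.01, a shift of 0.46 and 0.19. With it, the higher share among all 2-fold calls at 24 h went from 11.7% to 30.3%.

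Of 11 smooth muscle contractile genes, 6 had enough counts, and at 24 h 1 was higher and 5 were lower, with a median log2 ratio of -0.93, while at 48 h 2 were higher and 4 lower, with a median of -0.30. Of all genes compared, 25.1% were higher at 24 h and 37.2% at 48 h. Acta1, the alpha-actin of skeletal muscle, was the most abundant of them in untreated cells, with 32.0, 2.64 and 3.20 CPM in the 3 libraries and log2 ratios of -3.60 and -3.32. Actc1, the cardiac actin, and Des, which encodes the muscle intermediate filament desmin, had 0 UMIs in all libraries. Myh11, the smooth muscle myosin heavy chain that defines this lineage, had 7, 17 and 12 UMIs. Its log2 ratios were 0.77 (interval -0.58 to 2.28) and 0.85 (-0.61 to 2.44), and 1.22 and 1.04 with TMM scaling, past 2-fold. Lmod1 had at most 1 UMI in a library. Acta2 and Acta1, the closest pair by coding identity among those compared with Acta2, thus stood on opposite sides of the untreated level.

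Cald1 and Synpo2 were also 2-fold lower at 24 h. Cald1, which encodes the actin- and myosin-binding protein caldesmon, was at 4.62, 2.20 and 3.13 CPM, with log2 ratios of -1.07 and -0.56, and with TMM scaling the former was -0.62, short of 2-fold. Synpo2, an actin-bundling protein of muscle, had 9, 3 and 7 UMIs, with a log2 ratio of -2.10 at 24 h (-1.64 with TMM scaling).

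**Figure D2:**
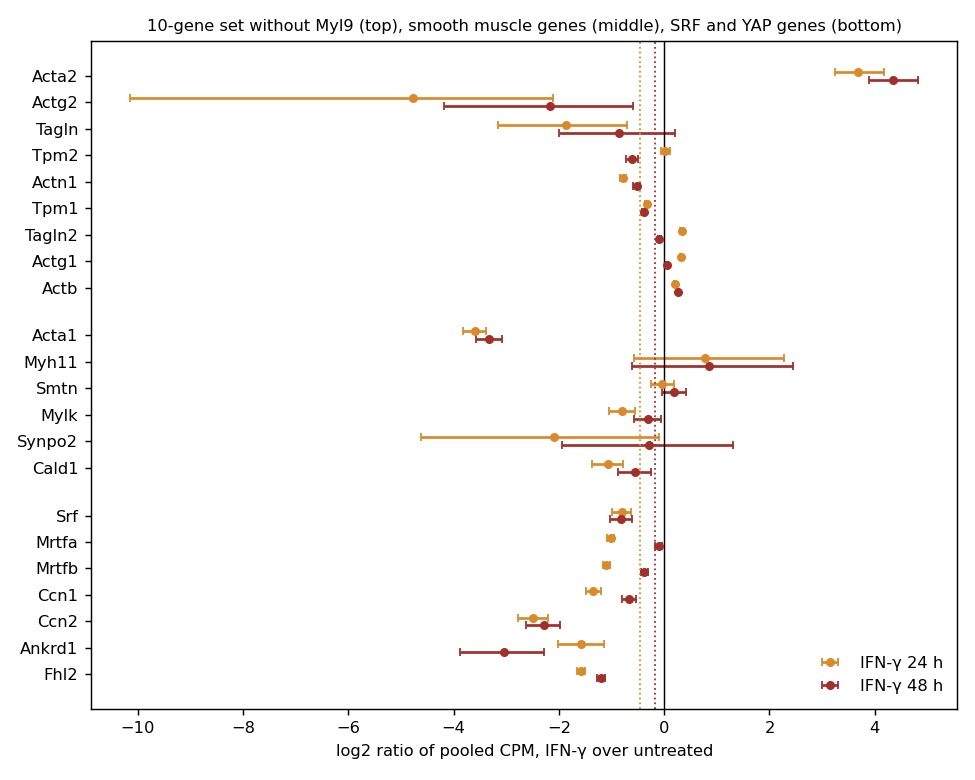
Log2 ratio of pooled CPM at 24 h and 48 h of IFN-γ over untreated, with exact conditional 95% intervals, for 9 genes of the set (top), 6 smooth muscle genes (middle) and 7 SRF and YAP genes (bottom); dotted lines mark the median of all genes, -0.46 at 24 h and -0.18 at 48 h. Acta2 stands at 3.69 and 4.34, and Acta1, Ccn2 and Ankrd1 lie below -1 at both times; the small ratio of Tpm1 at 24 h and of Tagln2 at 48 h changes sign with TMM scaling.

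SRF, its cofactors and target genes of SRF and YAP are shown one by one, as genes picked after their values were seen. Srf was at 11.2, 6.40 and 6.33 CPM, a log2 ratio of -0.81 and -0.82. The cofactors Mrtfa and Mrtfb, which carry the actin signal to SRF, had log2 ratios of -1.02 and -1.10 at 24 h, and of -0.11 and -0.37 at 48 h. With TMM scaling they were -0.56 and -0.64 at 24 h, short of 2-fold, and 0.08 for Mrtfa at 48 h, the opposite sign. Among target genes of these factors, Ccn2 was at 10.0, 1.79 and 2.05 CPM (log2 ratio -2.49 and -2.29), Ankrd1 had ratios of -1.58 and -3.03, Fhl2 of -1.58 and -1.20, and Ccn1 of -1.35 and -0.67. With TMM scaling Ccn1 was at -0.89 at 24 h, short of 2-fold, while Ccn2, Ankrd1 and Fhl2 stayed 2-fold lower at both times.

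The 20 non-muscle contractile genes, such as the myosin heavy chain Myh9 and the light chain Myl12a, had a median log2 ratio of -0.34 at 24 h, which turned to 0.11 with TMM scaling, and of -0.29 at 48 h. Of them 3 were higher and 17 lower at 24 h by library totals, against 13 higher and 7 lower with TMM scaling, when 25.1% of all genes were higher by library totals and 49.9% with TMM scaling. Myh10, at 1.16, 0.506 and 0.826 CPM, was the one past 2-fold by library totals, with a log2 ratio of -1.20, or -0.75 with TMM scaling. The 15 genes of actin turnover had a median of -0.14 at 24 h, which turned to 0.31 with TMM scaling, and of -0.33 at 48 h. Tmsb10, which encodes an actin monomer-binding thymosin, was 2-fold higher at 24 h (594, 1196 and 694 CPM, log2 ratio 1.01). Pfn1, which encodes profilin, was 2-fold lower at 48 h by library totals (525, 646 and 232 CPM, log2 ratio -1.18, or -0.99 with TMM scaling). The 10 genes of the TGF-β pathway had a median of -0.92 at 24 h and -0.16 at 48 h, the latter 0.03 with TMM scaling. Tgfbr1, Tgfbr2, Smad3 and Tgfb3 were 2-fold lower at 24 h by library totals, and 0 of the 10 genes were 2-fold lower with TMM scaling.

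Markers of fibroblasts, smooth muscle, pericytes and endothelial cells were close to 0. The 10 fibroblast genes summed to 2.01, 0.591 and 0.995 CPM in the 3 libraries, and the collagen genes Col1a1 and Col3a1 and the proteoglycan gene Lum had 0 UMIs in all of them. The 5 genes that define smooth muscle summed to 0.361, 0.295 and 0.508 CPM, with Des at 0 throughout. The 7 pericyte and endothelial genes summed to 2.67, 1.29 and 2.56 CPM, with Rgs5, Kdr and Cldn5 at 0 in every library. Vim, a mesenchymal intermediate filament, had 31, 4 and 1 UMIs. After IFN-γ the highest of these sums was 2.56 CPM, when Acta2 was at 10.9 and 17.1 CPM.

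The cells were next divided by expression state. They were clustered after integration of the libraries, with the 10 genes left out of the 2000 variable genes, which gave 9 clusters. Clusters 1 and 2 were proliferating-like (Ube2c, Plk1, Mcm4), cluster 4 goblet-like (Muc2, Tff3), cluster 5 colonocyte-like (Krt20, Slc26a3) and cluster 7 enteroendocrine-like (Chga, Chgb). Clusters 0, 3, 6 and 8 stayed unnamed. Cluster 0, led by Lrrc4 and AY036118, held cells of low depth, and cluster 3 was led by Stox2, Edn1 and Il1rn. The same Seurat clustering underlies all cluster values, and doublets were not removed.

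Acta2 was at least 2-fold higher in 7 of the 9 clusters at 24 h and in 7 at 48 h. In the proliferating-like cluster 1 it was at 0.0768 CPM in untreated cells (1 UMI), 10.7 CPM at 24 h and 18.8 CPM at 48 h, and in cluster 2 at 0.101, 12.0 and 17.8 CPM. Goblet-like cells, which secrete mucus, had 0.291, 14.4 and 23.2 CPM, a log2 ratio of 5.63 (interval 3.72 to 8.70) and 6.32 (4.42 to 9.39). Colonocyte-like cells, the absorptive surface cells, had 1.95, 10.8 and 10.7 CPM, a log2 ratio of 2.47 and 2.46. Of their 14 untreated UMIs, 11 came from 1 cell, and without that cell, an alternative added after seeing the data, the ratios were 4.68 (interval 3.08 to 6.99) and 4.67 (lower limit 3.02). Barcodes with fewer than 2000 UMIs held Acta2 at 10.6 CPM in the 24 h library and 21.3 CPM in the 48 h library, inside the range of the cluster levels. The part of a cluster level that came from its own cells was not tested.

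The larger unnamed clusters also had more Acta2 after IFN-γ. Cluster 0 had 1.15, 9.58 and 14.5 CPM. Cluster 3 had 3.67, 10.7 and 21.1 CPM, a log2 ratio of 1.54 and 2.53, and its 17 untreated UMIs all came from 1 cell. Without that cell the cluster had 0 untreated UMIs, and against a floor of 3 counts its ratios were at least 4.01 and at least 4.99. In cluster 6 the untreated cells had 0 UMIs, and against a floor of 3 counts over the cluster the log2 ratio was at least 1.15 at 24 h (4.68 CPM) and at least 1.77 at 48 h (7.16 CPM). The enteroendocrine-like cluster 7 had 0, 4 and 2 UMIs, with a ratio at 24 h against the floor of 0.69 whose lower limit was -0.32, and cluster 8 had 0, 2 and 0, too few to place them.

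The order of the clusters at 48 h ran from goblet-like (23.2 CPM, interval 18.4 to 28.9) over clusters 3, 1, 2 and 0 to colonocyte-like (10.7 CPM, 7.71 to 14.5) and clusters 7 and 6. The intervals of neighbours in this order overlapped, and those of the goblet-like and colonocyte-like cells did not. At 24 h cluster 6, at 4.68 CPM (2.86 to 7.23), lay below clusters 1 to 5, whose intervals it did not reach, and the others lay between 8.57 and 14.4 CPM. At that time the goblet-like interval (11.2 to 18.2 CPM) overlapped the colonocyte-like one (8.63 to 13.4 CPM).

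**Figure D3:**
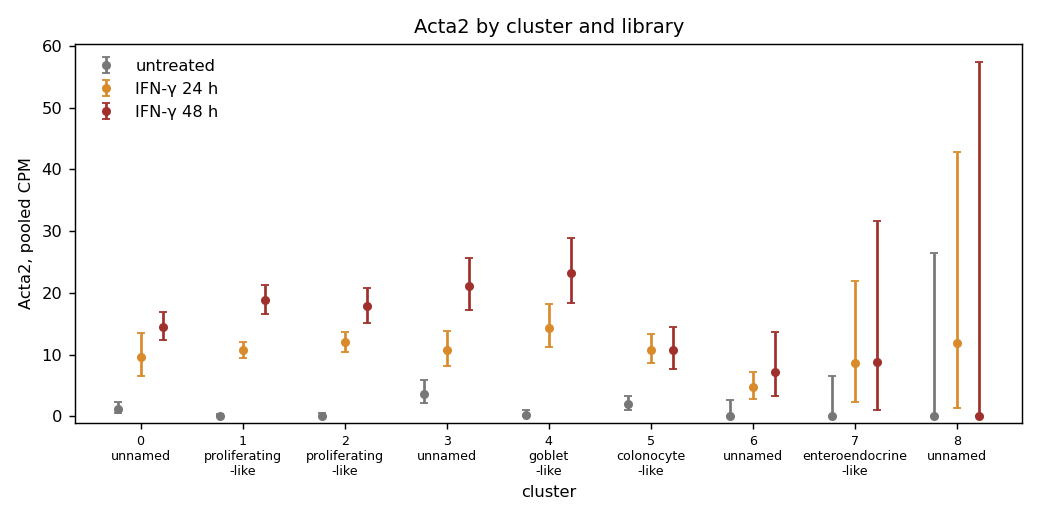
Acta2 pooled CPM in 9 clusters for the untreated, IFN-γ 24 h and IFN-γ 48 h libraries; points are sums over the cells of a cluster and bars exact Poisson 95% intervals. Goblet-like cells stand at 0.291, 14.4 and 23.2 CPM and colonocyte-like cells at 1.95, 10.8 and 10.7 CPM, and clusters 7 and 8 rest on 4 UMIs or fewer.

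The other genes of the set had cluster patterns of their own. Scaled to library totals, Tpm1 and Actn1 were lower in 9 of 9 clusters at 24 h and in 8 of 8 at 48 h, although the pooled ratio of Tpm1 at 24 h turned to 0.12 with TMM scaling. Actb and Actg1 were higher in 8 of 9 and 8 of 8 clusters. Tpm2 was the most uneven, at 66.5, 77.7 and 71.7 CPM in cluster 3 and 7.86, 4.65 and 4.35 CPM in goblet-like cells of the untreated, 24 h and 48 h libraries. Actn1 stood at 138, 76.8 and 92.5 CPM in goblet-like cells and 50.8, 36.8 and 50.7 CPM in colonocyte-like cells. In each library the intervals of the compared clusters did not overlap, for Tpm2 and for Actn1.

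Depth differed between the libraries, so Acta2 was also counted within depth ranges. Among cells with 5000 to 10000 UMIs it was at 0 CPM in 148 untreated cells (interval up to 3.30), 8.44 CPM in 95 cells at 24 h and 14.3 CPM in 1379 cells at 48 h. Among cells with at least 50000 UMIs it was at 0.988 CPM untreated and 11.2 CPM at 24 h, and the 70 such cells at 48 h held 85 UMIs. In all 4 depth ranges the treated level lay above the untreated one and the 48 h level above the 24 h level. In the lowest range, however, the 24 h value came from 6 UMIs. Its interval (3.10 to 18.4 CPM) overlapped the untreated and the 48 h intervals there.

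Per cell, the transcript was sparse. After each cell had been thinned to 5000 UMIs, 2 of 1058 untreated cells (0.189%), 51 of 917 cells at 24 h (5.56%, interval 4.17 to 7.25) and 208 of 2934 cells at 48 h (7.09%) held an Acta2 UMI. Before thinning the shares were 1.51%, 37.5% and 19.9%. If Acta2 molecules had fallen on cells at random at the same mean, the shares would have been 5.82% at 24 h and 7.38% at 48 h. The thinned means were 0.060 and 0.077 UMIs per cell, and at such low means the share follows mostly from the mean. This comparison cannot tell an even spread from expression in part of the cells. The variance of thinned counts over their mean was 1.12 and 1.14. The highest thinned count in 1 cell was 3 UMIs at 24 h and 5 at 48 h, and before thinning 13 and 15.

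Thinned cells with and without an Acta2 UMI were compared for the other genes of the set. The share of treated cells with a UMI was no higher than the background level given below, beyond counting error, so this division does not separate expressing from non-expressing cells. At 48 h the 208 thinned cells with an Acta2 UMI had 255 CPM of Tpm1 against 239 CPM in the 2726 other cells (log2 ratio 0.10, interval -0.09 to 0.28), 363 against 331 CPM of Tagln2 and 62.5 against 67.2 CPM of Actn1. Actb was at 2800 against 3477 CPM at 24 h and at 3698 against 3295 CPM at 48 h, so its difference changed direction between the times.

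Barcodes with fewer than 2000 UMIs, which can hold free RNA, debris and small or damaged cells, were taken as the background. The deposited barcodes start at 1390, 851 and 1624 UMIs in the untreated, 24 h and 48 h libraries. The background is thus a band just under 2000 UMIs whose lower end differs between libraries, and it holds no near-empty droplets. It comprised 17603, 15994 and 14296 barcodes. Acta2 was counted 1, 227 and 544 times in them, which is 0.0344, 10.6 and 21.3 CPM. In treated libraries the level in cells was close to or below this, at 1.02 times the background at 24 h and 0.80 times at 48 h, whereas in untreated cells it was 24.5 times a background of 1 UMI. Without the 2 untreated cells with the most Acta2 UMIs, an alternative added after seeing the data, it was 8.18 times. In barcodes with 2000 to 3000 UMIs it was at 0, 23.0 and 20.9 CPM, the value at 24 h from 8 UMIs.

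At the background level, 5.17% of 24 h cells and 10.1% of 48 h cells thinned to 5000 UMIs would hold an Acta2 UMI. The measured share at 24 h had this value inside its interval and the share at 48 h lay below it. The share of treated cells with an Acta2 UMI was therefore at the background level at 24 h and below it at 48 h. At neither time can the share show how many cells expressed the gene. The higher level of Acta2 in the whole library, cells and low-UMI barcodes alike, does not depend on that assignment. CPM levels are per UMI, and cells hold more UMIs than background barcodes. At 24 h the 917 cells held 774 Acta2 UMIs, against 227 in the 15994 background barcodes. Of the 774, 721 were in the 571 cells with at least 50000 UMIs. At 48 h the 2934 cells held 806, against 544 in the 14296 background barcodes. Of the 806, 137 were in the 1379 cells with 5000 to 10000 UMIs. What the low-UMI barcodes contributed to the Acta2 level in cells was not tested.

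Other genes of the set differed in this ratio. Tpm1 was at 1.68, 1.64 and 1.63 times its background in the untreated, 24 h and 48 h cells, and Actn1 at 2.34, 2.26 and 2.62 times. Tagln2, Actb and Actg1 lay between 0.942 and 1.21 times and Tpm2 between 0.844 and 0.976 times. A ratio near 1 was thus also found for Actb and Actg1, the most abundant genes of the set.

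**Figure D4:**
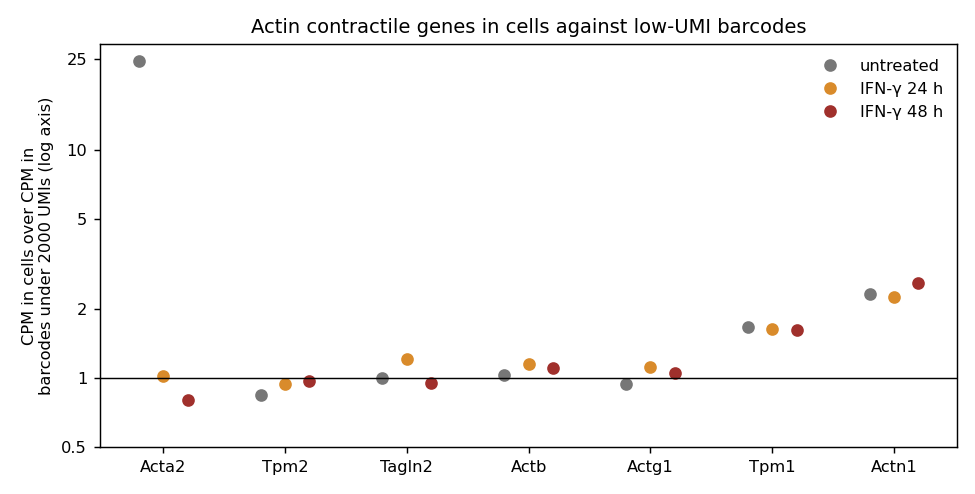
CPM in filtered cells divided by CPM in barcodes under 2000 UMIs (log axis) for 7 genes of the set in the 3 libraries, without intervals. Acta2 went from 24.5, against a background of 1 UMI (8.18 without the 2 untreated cells that held the most), to 1.02 and 0.80 in the treated libraries, while Tpm1 stayed at 1.63 to 1.68 and Actn1 at 2.26 to 2.62.

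The genes whose pattern was most like that of Acta2 were looked for over 21 units, each a cluster of 1 library with at least 30 cells. Over 10295 genes averaging 5 CPM or more, the highest Pearson correlations of log2(CPM + 1) with Acta2 outside the set were those of Gbp8 (0.94), Gbp3, Parp14, H2-K1, Parp12, Tap1, Ogfr and Trim26 (0.93). Gbp8 and Gbp3 encode guanylate-binding GTPases, H2-K1 a class I histocompatibility antigen and Tap1 a peptide transporter for it, and such genes are widely known as interferon-inducible. Gbp8 was at 0.542, 28.7 and 64.0 CPM and Tap1 at 5.30, 183 and 242 CPM. Within the set the correlations were 0.46 for Actb, 0.37 for Actg1, 0.31 for Tagln2, 0.11 for Tpm2, -0.46 for Actn1 and -0.47 for Tpm1. The units share 3 libraries, so treatment, library and depth move together in these correlations.

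The neighbours of Acta2 on the chromosome were examined after their values had been seen. Within 500 kb of the gene, 33 genes are annotated, 20 are among the features and 13 had enough counts. Fas, which encodes a death receptor and starts 35076 bases away on the plus strand, was at 3.55, 13.2 and 14.8 CPM (log2 ratio 1.90 and 2.06). Ifit2, an interferon-induced gene 295104 bases away, was at 2.51, 31.9 and 49.4 CPM (log2 ratio 3.67 and 4.30), and Ifit3b, 352380 bases away, had ratios of 1.55 and 1.08. The other genes of this Ifit cluster with enough counts were not 2-fold higher in cells, with ratios of -0.26 and -0.01 for Ifit1, 0.19 and -0.47 for Ifit3, -0.72 and -1.01 for Ifit1bl1, and -2.57 and -1.57 for Ifit1bl2. In barcodes under 2000 UMIs Ifit1 was at 0.275, 1.97 and 2.78 CPM and Ifit3 at 0.172, 1.73 and 1.49 CPM in the 3 libraries. There Ifit1bl1 was at 1.99, 5.01 and 2.90 CPM and Ifit1bl2 at 0.172, 0.0468 and 0.392 CPM. Stambpl1, which ends 757 bases from Acta2 on the plus strand, was at 39.8, 35.2 and 42.2 CPM, a log2 ratio of -0.18 and 0.09. At 24 h 3 of the 13 genes were 2-fold higher and 2 were 2-fold lower, when 3.46% of all genes compared were higher and 26.0% lower. At 48 h 3 were higher and 4 lower, when 5.26% of all genes were higher and 16.6% lower. Ifit2 and Ifit3b, among the higher genes, belong to 1 gene cluster.

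**Figure D5:**
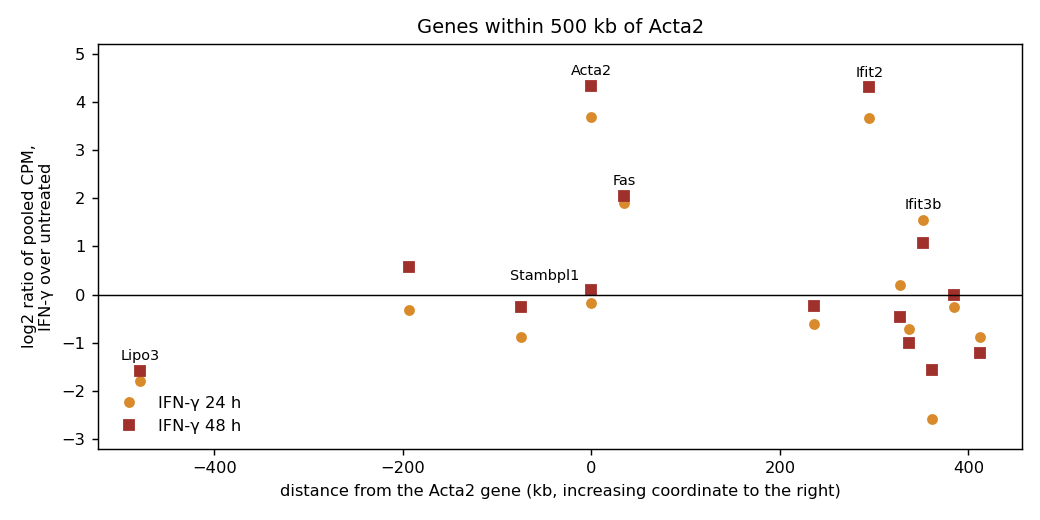
Log2 ratio of pooled CPM at 24 h (circles) and 48 h (squares) for Acta2 and the 13 genes within 500 kb that had at least 10 counts, against the distance between the genes in kb. Fas (1.90 and 2.06) and Ifit2 (3.67 and 4.30) stand with Acta2 above 1, and Stambpl1, 757 bases away, lies near 0.

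The promoters were searched for the CArG box, the site that SRF binds, on both strands of the 250 bases before the RefSeq transcription start. RefSeq promoter sequences (GRCm38.p6) were at hand for 7 of the 10 genes. With at most 1 mismatch, the CArG box was found in 4 of the 7, namely Acta2, Myl9, Tpm1 and Actg1, and in 18.6% of all 32851 promoters in the table. An exact match was found in Myl9 and Actg1 and in 1.47% of all promoters. These 30-base windows are shown because they set the Acta2 matches beside the exact matches in Myl9 and Actg1, with the CArG match in capitals, 5' to 3' on the strand of the gene. The Acta2 windows are chr19:34255438-34255467 and chr19:34255388-34255417 on the minus strand, the Myl9 window is chr2:156775293-156775322 on the plus strand and the Actg1 window chr11:120348566-120348595 on the minus strand.
Acta2, upstream site: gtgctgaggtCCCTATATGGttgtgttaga
Acta2, downstream site: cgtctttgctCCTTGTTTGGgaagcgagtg
Myl9: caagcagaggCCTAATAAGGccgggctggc
Actg1: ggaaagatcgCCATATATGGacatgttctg
The Acta2 matches lie 84 to 75 and 34 to 25 bases before the RefSeq start, each with 1 mismatch. Both lie inside the GENCODE span of Acta2, which reaches chr19:34255590, so the 2 annotations place the start differently. Each of the 7 searched windows overlaps the GENCODE span of its gene, so none is upstream sequence alone by that annotation. The core of the interferon-stimulated response element, searched on both strands, was not found in any of the 7 windows, and 2.98% of all promoters hold it. A match is a description of the letters, and a missing match refers to these windows alone.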

How the data were processed

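Per the labels, libraries were prepared by the authors with droplet chemistry of the 3' v3 kind (10x Genomics), and the submitters' processing notes name Cell Ranger 6.0.1 and mm10. The deposited values are raw UMI counts per gene and barcode, without normalization, and still include barcodes of low depth. Each sample label gives 1 group of 1 library.

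Cells were filtered as in the study's methods (at least 5000 UMIs, at least 400 genes, at most 15% mitochondrial UMIs). Counts were summed over cells and scaled to CPM. CPM was not divided by gene length, since 3' counting takes 1 UMI per molecule. Ratios of pooled counts needed at least 10 counts over 2 libraries. Ratios within a cluster needed at least 10 cells in each library and more than 3 counts in 1 of them. Ratios have exact conditional binomial intervals. Levels have exact Poisson intervals and shares of cells Clopper-Pearson intervals. A group at 0 was set to a floor of 3 counts. The ratio code was tested on simulated data. Clusters came from Seurat 5.3.0 (CCA over 30 dimensions, 20 principal components, resolution 0.5), and a cluster was named only where a marker of that type was among its leading genes. TMM factors came from edgeR 4.0.16 and median-of-ratios factors from DESeq2 1.42.0, both used for scaling alone. Named genes were the 10 genes of the set, list genes past 2-fold at either time or defining a cell type, and the 8 genes most like Acta2. Genes named to illustrate a list or cluster, and the neighbours of Acta2, fall outside this rule and were picked after their values were seen. The 10 genes and the lists were chosen with earlier results of these data known. Some results of a gene list and of a motif search are not reported here.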

Additional observations from a re-analysis of the deposited data

How the results depend on the processing

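No paired analysis was possible because each group has 1 library. The Acta2 log2 ratio stayed above 1 at both times under all settings tried, from 3.37 to 6.34 at 24 h and from 3.96 to 7.04 at 48 h. The highest values came without the 10 cells with the most Acta2 UMIs per library (6.34 and 7.04), which left 6 untreated UMIs. Without the 2 untreated cells with the most Acta2 UMIs, a setting added after seeing the data, they were 5.27 and 5.92. Without 1 untreated cell each, also added then, the ratios were at least 4.01 and 4.99 in cluster 3 (1.54 and 2.53 as reported) and 4.68 and 4.67 in cluster 5 (2.47 and 2.46). The number of genes of the set that were 2-fold lower at 48 h went from 1 to 2 with at most 10% mitochondrial UMIs, with the mean over cells of CPM, without the 5% of cells with the most UMIs and with untreated cluster shares. Among clusters with at least 10 cells of both libraries, Acta2 was higher in 8 of 9 at 24 h and 7 of 8 at 48 h. At resolution 0.3 it was higher in 5 of 6 and 4 of 5, and at resolution 1 in 11 of 14 and 12 of 13. Without integration it was higher in 0 of 2 and 0 of 1. Acta2 in barcodes with 2000 to 3000 UMIs was at 0 CPM in the untreated library and 23.0 CPM at 24 h. Unthinned shares of cells with an Acta2 UMI were 1.51%, 37.5% and 19.9%. Of 160 ratios of the other genes of the set under these settings, 96 stayed inside the counting interval of the reported value and 64 fell outside it. The printed intervals thus do not cover the choice of processing. Of the 160, 8 changed sign, none of them past 2-fold in the reported value. Depth limits Actg2, Tagln and Myl9, which had 1 to 23 UMIs per library.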

Other observations

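Cells that held an Acta2 UMI after thinning were also set against the other cells for 14 genes outside the set, chosen as markers of cell states and of the cytoskeleton. As stated above, this division does not separate expressing from non-expressing cells. The differences below therefore do not show traits of cells that express Acta2. At 48 h Krt20, a keratin of surface colonocytes, was at 14.4 CPM in the 208 cells with Acta2 and 28.1 CPM in the 2726 others, with the gene found in 4 of the 208 cells (1.92%) and in 4.18% of the others (log2 ratio -0.96, interval -1.81 to -0.22). Mki67, a gene of cycling cells, was at 349 against 356 CPM and the stem cell gene Lgr5 at 102 against 107 CPM at 48 h, both within counting error. Cald1 was at 11.5 against 3.15 CPM at 48 h (log2 ratio 1.87, interval 0.81 to 2.82), from 12 UMIs in 5 of the 208 cells and 43 UMIs in 41 of the others, whereas at 24 h it was at 0 against 2.77 CPM. Each comparison is within 1 library, and cells of a library are not replicates.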
